A study of Bos taurus with 48 samples.

Results

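The genes described here encode the collagens, laminins, elastic fibre proteins, lysyl oxidases, fibronectin and small proteoglycans that make up the extracellular matrix of the bovine endometrium. Members were chosen by gene symbol alone, as the array probes named for a collagen, laminin, fibulin or fibrillin chain, LOX or a LOX-like gene, ELN, FN1, DCN, BGN, LUM or VCAN. The rule found 67 genes on 70 of 21475 probes. VCAN was not among them, because the array lists versican under an older symbol. Of these genes, 53 (on 55 probes) were bright enough to be tested among 14695 probes tested in all.

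Endometrium was taken from 22 lactating Holstein-Friesian cows of mixed New Zealand and North American ancestry, all with synchronized oestrous cycles, slaughtered on day 17. The 12 pregnant cows had received a grade 1 blastocyst on day 7, and the 10 cyclic cows had received none. Each cow gave a caruncular sample, from the raised sites where the placenta will attach, and an intercaruncular sample, from the glandular tissue between them. The pregnant cows were labelled by embryo size, with 7 carrying a large embryo (over 20 cm and over 75 mg) and 5 a small embryo (under 20 cm and under 40 mg), and by a fertility class given in the sample titles, with 6 fertile and 6 sub-fertile. The class is not explained in the labels, and neither label exists for the cyclic cows. Of the large embryos 3 were in fertile and 4 in sub-fertile cows, and of the small embryos 3 were in fertile and 2 in sub-fertile cows.

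Fibrillar collagens form the cables that bear tension in stroma, and the other chains that join them (FACIT collagens, small leucine-rich proteoglycans) set the width and spacing of those cables. Basement membranes, the sheets beneath epithelium and around vessels and muscle cells, are built from separate networks of type IV collagen and laminin. Elastin is laid down on fibrillin microfibrils, and lysyl oxidases crosslink both elastin and collagen. In ruminants the conceptus attaches to the luminal epithelium without eroding the uterine wall, so this matrix lies beneath an intact epithelium during the days of attachment.

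Each sample carried Cy5 and competed on its array with a Cy3-labelled pool made from equal parts of the 44 samples. A level here is the log2 ratio of sample to pool, and a level of 0 is that of the pool. The proportion of spots well above background ran from 68.8% to 84.0% of spots per array. A gene was called in the pregnancy and tissue comparisons when its change was at least 1.5-fold with a Benjamini-Hochberg adjusted p under 0.05 by limma over all probes tested, and in the embryo size, fertility and interaction comparisons at that adjusted p alone. In bulk tissue, fewer cells of a type and less RNA per cell cannot be told apart.

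The tissue labels were set against FOXA2, a transcription factor of endometrial glands. FOXA2 ran from -0.39 to 1.24 over the 22 intercaruncular samples, and in caruncular samples from -4.58 to -0.53 in pregnant cows and from -3.06 to 0.13 in cyclic cows. The caruncular samples of 3 cyclic cows (Cyclic_1940, Cyclic_3811 and Cyclic_9960) therefore lay in the intercaruncular range, and results that rest on them are also given without them. Among the conceptus markers, PAG11 was above background in 0 of 44 samples, TKDP1 and CSH1 in 2 each and PAG2 in 3. The stromal, epithelial, smooth muscle and endothelial markers tested were above background in 44 of 44 samples. All but 2 cows had their intercaruncular array scanned on the first of 3 dates and their first caruncular array on the second, and 4 of them had a further caruncular array scanned on the last date and averaged in. No date held both tissues of these cows, so for them tissue and scan date cannot be told apart.

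The members divided into 11 roles. All 11 fibrillar collagens, all 5 lysyl oxidase genes and all 3 proteoglycans were tested, with 10 of 12 laminins, 5 of 6 type IV collagen chains, 5 of 9 FACIT collagens, 5 of 7 elastic fibre genes, 4 of 7 network-forming and anchoring collagens, 2 of 4 transmembrane collagens, both multiplexins and fibronectin. The 14 genes that were too dim were COL4A1, COL8A1, COL8A2, COL9A1, COL10A1, COL14A1, COL17A1, COL20A1, COL21A1, COL25A1, LAMA5, LAMB4, FBN2 and FBN3, together with the dimmer of the 2 probes for COL1A2. The brighter COL1A2 probe was tested, as were both probes of DCN and of FBN1, and a gene is counted by its brighter probe.

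The mean level over a role showed which roles differed most from sample to sample. Over the 5 type IV collagen chains it ran from 0.05 to 1.21 in caruncular samples of pregnant cows and from -2.28 to -0.23 in their intercaruncular samples, with no overlap. Over the 11 fibrillar collagens the median of the samples was 0.73 in caruncular and 0.23 in intercaruncular tissue of cyclic cows, and 0.36 and -0.49 in those of pregnant cows. Over the 10 laminins the same 4 medians were 0.00, 0.15, -0.17 and -0.12. Of these 3 role means that of the type IV collagens separated the samples most widely, and that of the laminins stayed nearest to the pool. Single laminins differed in both directions, by -0.90 to 0.46 between the tissues of pregnant cows.

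**Figure D1:**
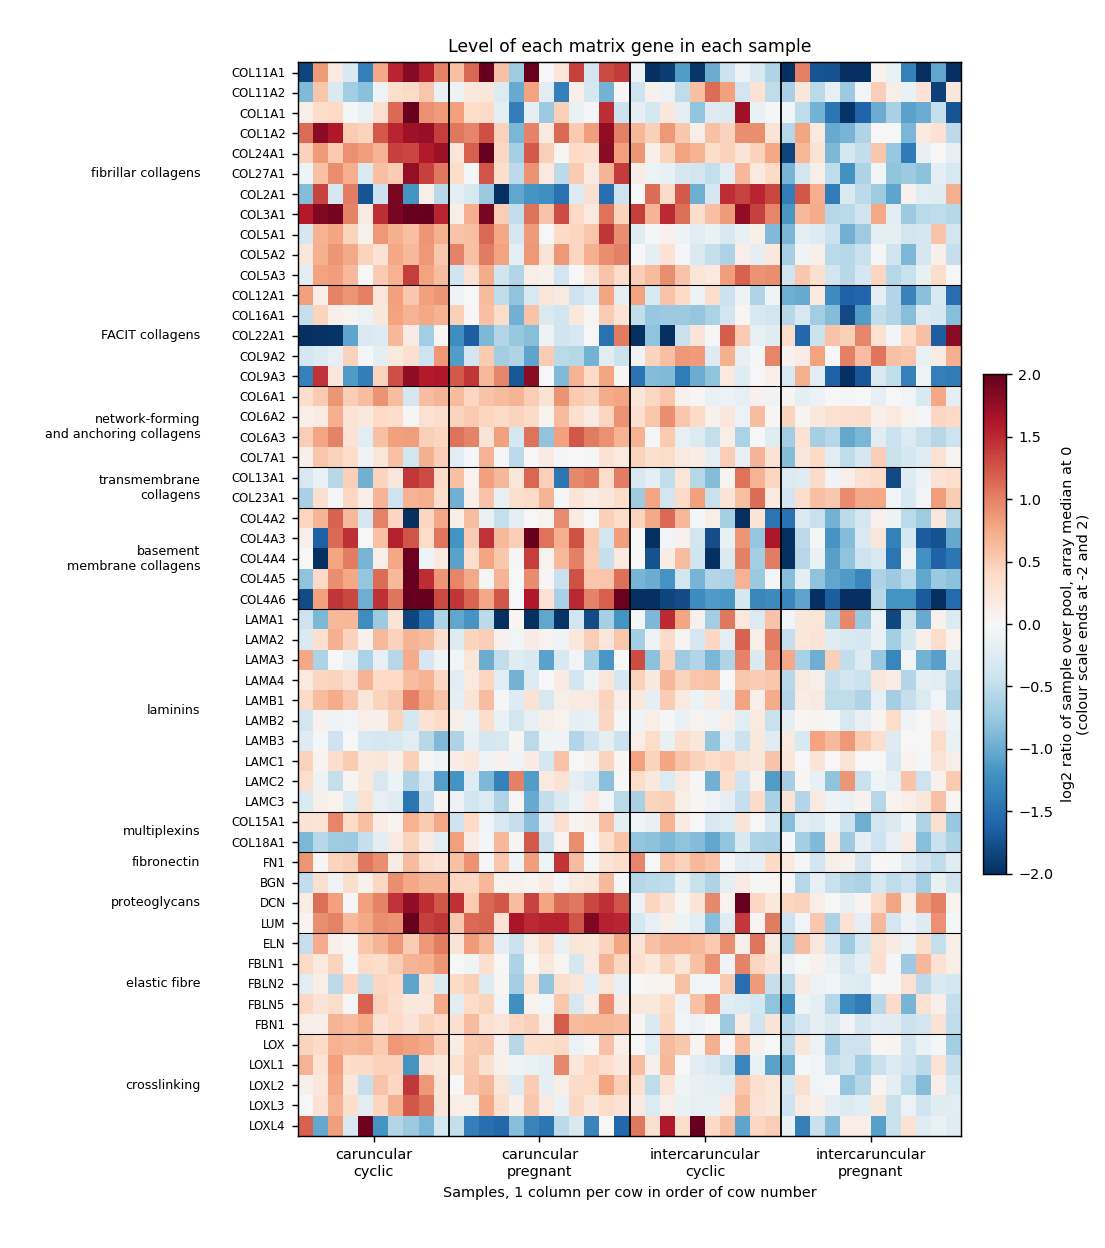
Level of each tested matrix gene (rows, grouped by role) in each of the 44 samples (columns, grouped by tissue and state), as the log2 ratio of sample to pool. The type IV collagen chains are mostly above the pool in caruncular and below it in intercaruncular samples, while the laminins lie near the pool on average.

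The first comparison asks how the matrix differs between the attachment sites and the tissue between them. In cyclic cows 2 of 5 type IV collagen chains, 5 of 11 fibrillar collagens and 2 of the 3 proteoglycans DCN, BGN and LUM were up-regulated in caruncular tissue, and in pregnant cows 5, 8 and 3 of them were. The widest difference belonged to COL4A6, a chain of a minor type IV network, which was 5.15-fold higher in cyclic and 5.96-fold higher in pregnant cows. Of the 53 genes tested, 12 were called in cyclic cows, all higher in caruncular tissue, where 11.9% of all probes tested were called with 6.79% called higher and 5.08% lower. In pregnant cows 28 were called, 25 higher and 3 lower, beside 17% of all probes called, 9.08% higher and 7.88% lower. The median difference of the 53 genes was 0.38 in cyclic and 0.57 in pregnant cows, against -0.02 over all probes in both.

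**Figure D2:**
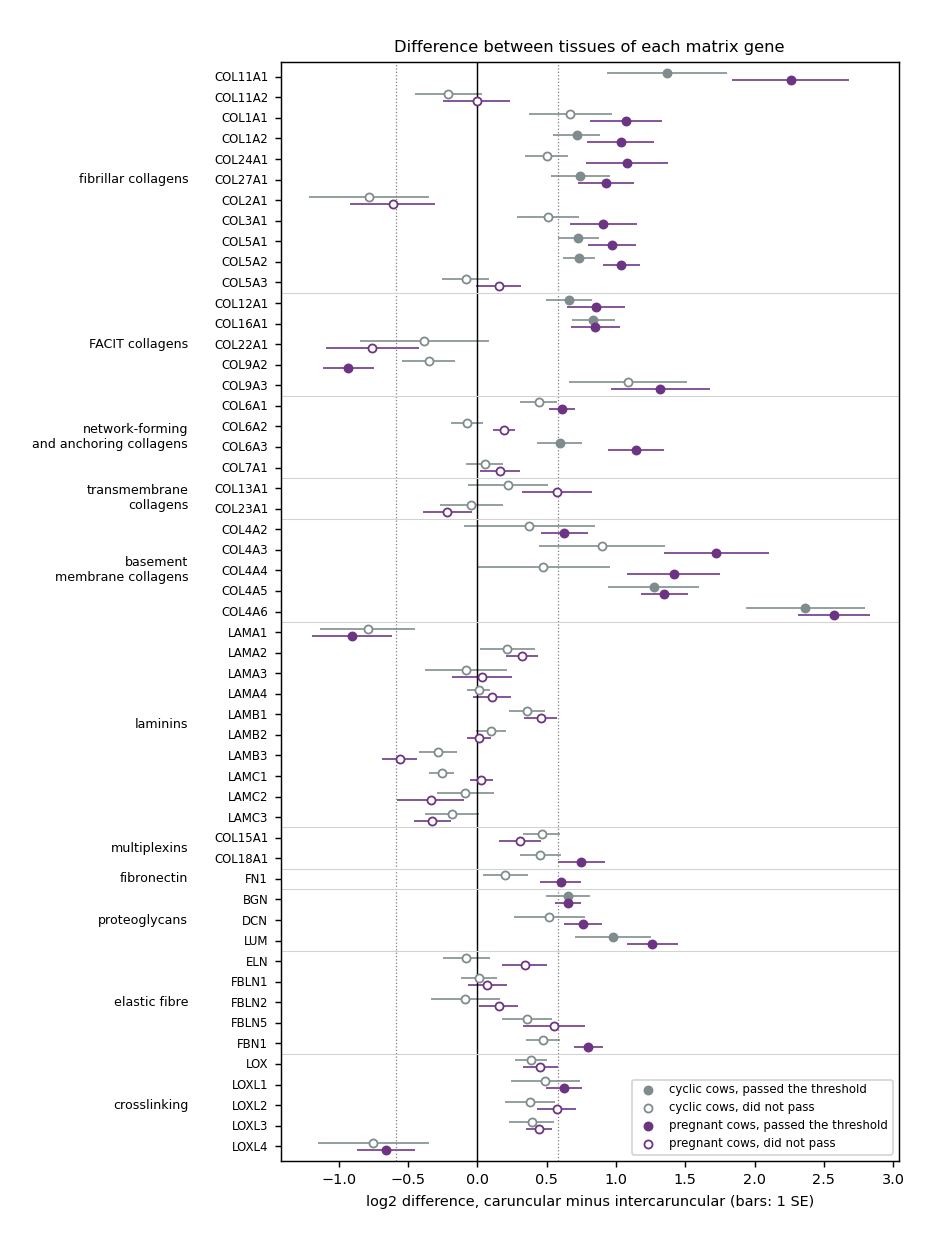
Difference between caruncular and intercaruncular tissue (log2, bars are SE) for every tested matrix gene in cyclic and in pregnant cows, by role, with filled points for genes called and dotted lines at 1.5-fold. Nearly all filled points lie to the right, with COL4A6 at 2.37 and 2.57.

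Among the basement membrane collagens, 2 of 5 were called in cyclic cows and 5 of 5 in pregnant cows, all higher in caruncular tissue. In pregnant cows COL4A6 ran from -0.65 to 1.97 in caruncular samples with a median of 1.18, and from -2.46 to -0.56 in intercaruncular samples with a median of -1.60. Those ranges met only at their ends, and the caruncular sample was higher in 12 of 12 cows (difference 2.57 ± 0.26 SE, adjusted p = 2.33e-07 by limma). Here and in the other tissue comparisons the SE and p did not pair the 2 tissues of a cow unless a cow block is named. In cyclic cows COL4A6 ran from -1.79 to 2.73 in caruncular samples with a median of 1.34, and from -2.03 to -0.35 in intercaruncular samples with a median of -1.29 (2.37 ± 0.43, adjusted p = 0.000409). The lowest caruncular values there belonged to cows Cyclic_1940 and Cyclic_3811, both of which had FOXA2 in the intercaruncular range.

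COL4A5, which pairs with COL4A6 in that network and whose gene lies head to head with it, was 2.42-fold higher in cyclic and 2.55-fold higher in pregnant cows. COL4A5 was higher in the caruncular sample of all 22 cows, by 0.13 to 2.22 in cyclic and by 0.28 to 2.26 in pregnant cows on the log2 scale. COL4A3 and COL4A4, which form a further specialized network with COL4A5, were called in pregnant cows, at 3.31-fold and 2.67-fold, and gave 0.90 and 0.48 on the log2 scale in cyclic cows without a call. The COL4A4 probe was dim and above background in 12 of 12 caruncular but 10 of 12 intercaruncular samples of pregnant cows, so its fold is uncertain, and it was not tested under a stricter filter (bright enough in 40 of 44 samples). COL4A2, a chain of the network found in nearly all basement membranes, was 1.55-fold higher in pregnant cows. COL4A3 reached -3.85 in 1 intercaruncular sample of a pregnant cow.

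Laminins form the other network of basement membranes. Of 10 tested, 0 were called by limma in cyclic cows (3 had an unadjusted p under 0.05) and 1 in pregnant cows, beside the 11.9% and 17% of all probes given above, and counts of this size lie near those shares. The gene called was the epithelial chain LAMA1, 1.87-fold lower in caruncular tissue (adjusted p = 0.0126) and named after its values were seen. Its probe was dim and above background in 9 of 12 caruncular samples of pregnant cows, so its fold is uncertain, and it was not tested under the stricter filter. LAMB3, a chain of the laminin that anchors epithelium, differed by -0.56 and LAMB1, a widely used chain, by 0.46 on the log2 scale in pregnant cows, both with an adjusted p under 0.05 but below 1.5-fold. LAMA2, the brightest laminin and the chain typical of muscle, differed by 0.22 in cyclic and 0.32 in pregnant cows and was not called. LAMA4, the chain of vessels and smooth muscle, differed by 0.01 and 0.11.

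Of the fibrillar collagens, 5 of 11 were called in cyclic cows and 8 of 11 in pregnant cows, all higher in caruncular tissue. COL11A1, which nucleates thin fibrils in cartilage and is otherwise scarce, had the widest difference, 2.59-fold in cyclic and 4.79-fold in pregnant cows. In pregnant cows its level ran from -0.71 to 2.28 in caruncular samples with a median of 0.87, and from -3.35 to 1.00 in intercaruncular samples with a median of -1.73. The 2 ranges overlapped, and the caruncular sample was higher in 11 of 12 cows (2.26 ± 0.42 SE, adjusted p = 0.000132).

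The type V chains COL5A1 and COL5A2, which start type I fibrils and limit their width, were higher by 0.73 each in cyclic cows and by 0.97 and 1.04 in pregnant cows on the log2 scale. COL5A2 was higher in the caruncular sample of all 22 cows. COL1A2, a chain of the main fibrillar collagen, was called in both states (0.72 and 1.03), while its partner COL1A1 (1.07, 2.10-fold) and COL3A1 of compliant tissue (0.91, 1.88-fold) were called in pregnant cows, with log2 differences of 0.67 and 0.51 in cyclic cows that were not called. COL27A1, a fibrillar collagen of developing cartilage, was 1.67-fold and 1.90-fold higher. COL24A1, a minor fibrillar collagen named after its values were seen, was 2.12-fold higher in pregnant cows, by a dim probe that was above background in 11 of 12 caruncular and 10 of 12 intercaruncular samples and was not tested under the stricter filter. COL2A1 of cartilage (-0.78 and -0.61) and COL11A2 (-0.21 and -0.00) had negative differences that were not called.

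**Figure D3:**
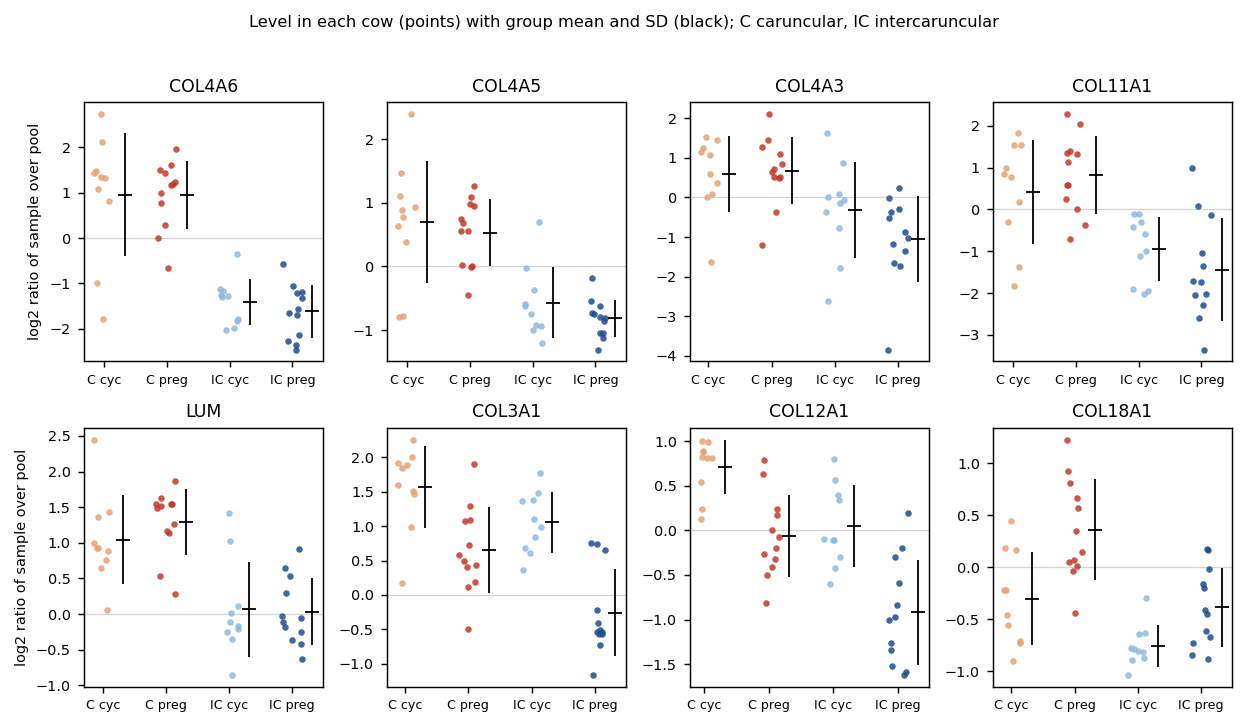
Levels (log2 ratio to the pool) of 8 matrix genes in every sample of the 4 groups, with the mean and SD of each group. COL4A6 separates the tissues with little overlap, whereas COL3A1 and COL12A1 are also lower in pregnant than in cyclic cows within a tissue.

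All 3 small leucine-rich proteoglycans were called in pregnant cows and 2 of 3 in cyclic cows. LUM, lumican, which spaces collagen fibrils, ran in pregnant cows from 0.29 to 1.86 in caruncular samples with a median of 1.5 and from -0.63 to 0.91 in intercaruncular samples with a median of -0.08. It was higher in the caruncular sample of all 22 cows, by 2.40-fold in pregnant and 1.97-fold in cyclic cows. BGN, biglycan, was 1.57-fold higher in both states. DCN, decorin, the brightest of the proteoglycans, was higher by 0.76 in pregnant cows (adjusted p = 8.67e-05). In cyclic cows its brighter probe gave 0.52 and was not called, whereas its dimmer probe gave 0.73 and was.

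FACIT collagens, which coat the surface of fibrils, did not all move the same way. COL16A1 (0.84 and 0.85) and COL12A1 (0.66 and 0.86) were higher in caruncular tissue in cyclic and pregnant cows respectively. In pregnant cows COL9A3 was 2.50-fold higher and its partner chain COL9A2 was 1.90-fold lower in caruncular tissue. COL9A2 was lower in the caruncular sample of 12 of 12 cows, with levels of -1.12 to 0.52 against -0.13 to 1.07.

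Type VI collagen, which forms beaded filaments around cells, was represented by COL6A3 (1.51-fold in cyclic, 2.21-fold in pregnant cows) and COL6A1 (1.53-fold in pregnant cows). Within the slide of cow Pregnant_9790, the only pregnant cow with both tissues on a single slide, COL6A1 gave -0.04. In pregnant cows COL18A1, the source of endostatin, was 1.68-fold higher, FN1, the fibronectin that cells grip through integrins, 1.52-fold higher, and LOXL1, which crosslinks elastin, 1.54-fold higher. FBN1, the main fibrillin of microfibrils, was 1.74-fold higher by its brighter probe, and its second probe gave 0.55 on the log2 scale (adjusted p = 0.000335), below 1.5-fold. LOXL4, another member of the lysyl oxidase family, named after its values were seen, was 1.58-fold lower in caruncular tissue of pregnant cows but gave 0.14 within the slide of cow Pregnant_9790. The brightest genes of the remaining roles, COL7A1 of anchoring fibrils, COL23A1 of the cell membrane, FBLN1 of elastic fibres and LOXL2 of type IV collagen crosslinking, were not called in either state.

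Other genes of the matrix pathway, from lists given by function, gave the following counts. Over all probes tested, 6.79% were called higher and 5.08% lower in cyclic cows, and 9.08% higher and 7.88% lower in pregnant cows. Several of the list counts lie near those shares. Among 15 genes that process collagen, 2 were higher in cyclic and 3 in pregnant cows, with SERPINH1, the collagen chaperone, at 0.81 and 0.98 and PLOD2, a lysyl hydroxylase, at 1.16 and 0.76. Of 9 matricellular genes, 3 were higher and 1 lower in cyclic cows and 3 higher and 2 lower in pregnant cows. TNC, tenascin C, gave 2.93 and 3.43 on the log2 scale, POSTN, periostin, 1.06 and 1.09, and MGP, an inhibitor of calcification, -1.01 and -0.65. Of 19 matrix receptors 3 were higher and 1 lower in cyclic cows and 5 higher and 2 lower in pregnant cows, with ITGA8, the integrin chain that binds nephronectin and fibronectin, at 1.59 and 1.88 and DDR1, an epithelial collagen receptor, at -0.59 and -0.83. NID1, which links laminin to type IV collagen, was called in pregnant cows at 1.20, as the only one of 3 such linkers. Of 6 other small leucine-rich proteoglycans 2 were higher in cyclic cows (FMOD, 0.76, and PRELP, 0.69), while in pregnant cows FMOD was higher (0.67) and PODN lower (-0.88). Of 10 elastic fibre partners EMILIN1 (0.68), MFAP2 (0.61) and MFAP4 (0.86), proteins of microfibrils and elastic fibres, were higher in pregnant cows, and in cyclic cows EMILIN1 (0.48), MFAP2 (0.42) and EFEMP2 (0.31) passed the adjusted p but not the fold.

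Markers of several cell types moved with these genes. Of 5 stromal markers tested, HOXA10 and PDGFRA were higher in caruncular tissue of cyclic cows and HOXA10, PDGFRA and THY1 in that of pregnant cows. The mean of the 5 ran from -0.20 to 0.95 over caruncular samples of pregnant cows and from -0.39 to 0.20 over their intercaruncular samples. Of 5 epithelial markers KRT18 was lower in cyclic cows (-0.78), and in pregnant cows KRT18 (-1.38), KRT8 (-0.66) and TACSTD1 (-0.83) were lower and CDH1 (0.83) was higher. Of 7 smooth muscle markers DES (0.74) and TAGLN (0.78) were higher in pregnant cows, with a list median of 0.43 in cyclic and 0.33 in pregnant cows. The difference in FOXA2 was -1.56 in cyclic and -2.65 in pregnant cows. The part of cell composition in the matrix differences was not tested.

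With the cow as a block, which pairs the 2 tissues of each animal, 18 genes were called in cyclic cows, including all 12 above. The 6 added were COL1A1, COL4A3 and COL9A3, higher, and COL2A1, LAMA1 and LOXL4, lower. Without the 3 caruncular samples with FOXA2 in the intercaruncular range, 15 were called in cyclic cows, among them 11 of the 12 (COL12A1 gave 0.58, below 1.5-fold), and COL4A6 differed by 2.98 on the log2 scale. Within single slides, where scan date was shared, 12 of 12 called genes had the same sign in cow Cyclic_9786 and 26 of 28 in cow Pregnant_9790, the exceptions being COL6A1 and LOXL4. Both cows were among those used for the calls, and 40 and 42 of the 53 genes tested were higher in their caruncular samples. With 1 such cow per state, these signs cannot separate tissue from scan date.

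The next comparison asks how the matrix of pregnant cows differed from that of cyclic cows on the same day. In intercaruncular tissue matrix genes were called down-regulated in pregnant cows more often than up-regulated. There the fibrillar collagens COL3A1 and COL1A1 were 2.49-fold and 2.01-fold lower. In intercaruncular tissue 9 of 53 genes were called, all lower, where 7.24% of all probes were called, 3.25% lower and 3.99% higher. In caruncular tissue 4 of 53 were called, 3 lower and 1 higher, where 9.98% of all probes were called, 4.21% lower and 5.77% higher. Caruncular counts of this size lie near those shares, and a difference between the tissues in the effect of pregnancy was not shown. The median change of the 53 genes was -0.33 in intercaruncular tissue, against -0.01 over all probes, and -0.13 in caruncular tissue, against -0.04.

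**Figure D4:**
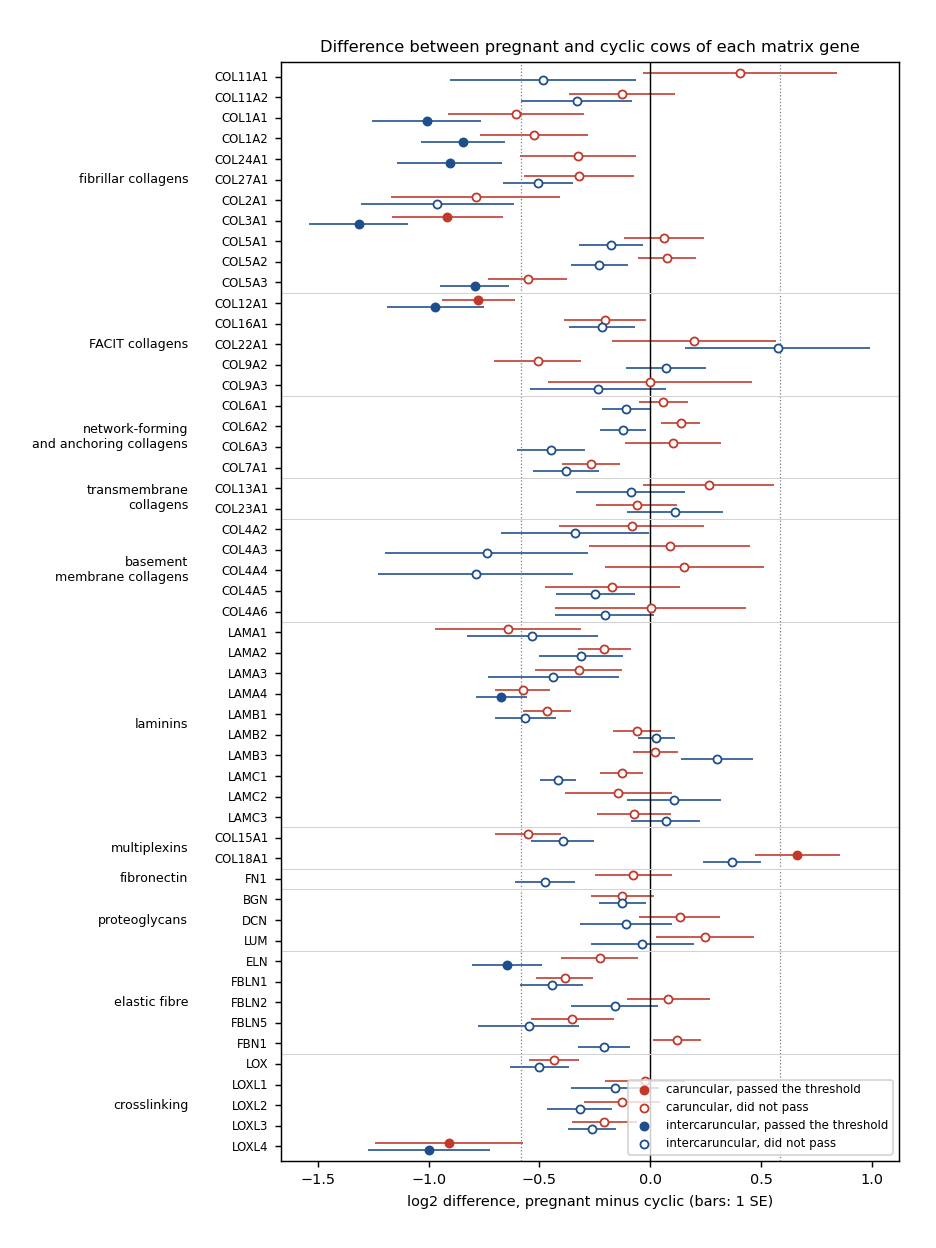
Change in pregnant against cyclic cows (log2, bars are SE) for every tested matrix gene in each tissue, by role, with filled points for genes called and dotted lines at 1.5-fold. In intercaruncular tissue all 11 fibrillar collagens lie below 0, and COL18A1 in caruncular tissue is the only filled point above 0.

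COL3A1, type III collagen, fell in both tissues. In intercaruncular tissue its level ran from -1.16 to 0.76 with a median of -0.52 in pregnant cows, and from 0.36 to 1.78 with a median of 1.04 in cyclic cows. Of the 12 pregnant cows, 9 lay below every cyclic cow (-1.32 ± 0.22 SE, adjusted p = 0.000316 by limma). In caruncular tissue it ran from -0.49 to 1.91 with a median of 0.53 in pregnant cows, and from 0.18 to 2.26 with a median of 1.72 in cyclic cows. There the groups overlapped more, with 2 pregnant cows below every cyclic cow (-0.92 ± 0.25, adjusted p = 0.00968).

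COL12A1, the FACIT collagen of fibril surfaces in dense stroma, also fell in both tissues, by 1.71-fold in caruncular and 1.96-fold in intercaruncular tissue. In caruncular tissue it ran from -0.81 to 0.79 with a median of -0.14 in pregnant cows, and from 0.13 to 1.00 with a median of 0.82 in cyclic cows. In intercaruncular tissue it ran from -1.62 to 0.19 with a median of -0.99 in pregnant cows, and from -0.60 to 0.81 with a median of -0.10 in cyclic cows. In both tissues 8 of 12 pregnant cows lay below every cyclic cow.

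In intercaruncular tissue 5 of 11 fibrillar collagens were called, and all 11 had a negative change with a median of -0.79. COL1A1 and COL1A2, the chains of type I collagen, fell by 1.01 and 0.84 on the log2 scale. COL1A1 ran from -1.96 to -0.05 in pregnant and from -0.78 to 1.69 in cyclic cows, where cow Cyclic_9786 held the highest value and the next was 0.23. COL5A3, a type V chain, was 1.73-fold lower and COL24A1 1.87-fold lower, the latter by a dim probe above background in 10 of 12 pregnant cows. In caruncular tissue the same 4 genes gave -0.61, -0.53, -0.55 and -0.32 and were not called.

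The FACIT collagens, laminins, elastic fibre genes and lysyl oxidase genes had a single call each in intercaruncular tissue, and the remaining roles had none. LAMA4 was 1.59-fold lower in pregnant cows, with levels of -0.59 to 0.23 against -0.00 to 0.67 and 8 of 12 pregnant cows below every cyclic cow (adjusted p = 0.000296). In caruncular tissue LAMA4 gave -0.58 with an adjusted p of 0.00157 and missed the call only by its fold, 1.49. ELN, the elastin gene, was 1.57-fold lower in intercaruncular tissue, from -0.71 to 0.62 in pregnant and from 0.11 to 1.07 in cyclic cows. LOXL4 was 2.00-fold lower in intercaruncular and 1.88-fold lower in caruncular tissue, with wide cyclic ranges of -1.05 to 2.13 and -1.19 to 1.94. Its caruncular call was lost under 7 alternatives, with adjusted p of 0.0539 to 0.98.

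The single rise was that of COL18A1 in caruncular tissue. Its level ran from -0.44 to 1.23 with a median of 0.25 in pregnant cows and from -0.90 to 0.45 with a median of -0.34 in cyclic cows, so that the groups overlapped (1.58-fold, 0.66 ± 0.19 SE, adjusted p = 0.0136). In intercaruncular tissue it gave 0.37 (adjusted p = 0.0467) and was not called. COL15A1, the other multiplexin, found around vessels and muscle, gave -0.55 and -0.39 in the 2 tissues.

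Type IV collagens and the 3 proteoglycans had no call for pregnancy, where 9.98% of all probes were called in caruncular and 7.24% in intercaruncular tissue. For so few genes, 0 calls lie near those shares. Of the 5 type IV chains 0 were called in either tissue by limma, 0 had an unadjusted p under 0.05, and COL4A6 changed by 0.00 in caruncular and -0.21 in intercaruncular tissue. DCN (0.13 and -0.11), LUM (0.25 and -0.03) and BGN (-0.13 and -0.13) were likewise not called. The brightest genes of other roles, LAMA2 (-0.21 and -0.31), COL16A1 (-0.20 and -0.22), COL7A1 (-0.27 and -0.38), LOXL2 (-0.13 and -0.32), COL4A5 (-0.17 and -0.25) and COL23A1 (-0.06 and 0.11), were not called in caruncular or intercaruncular tissue. FN1 (-0.08 and -0.47) and FBLN1 (-0.39 and -0.44) passed the adjusted p in intercaruncular tissue, and FBLN1 in both, but not the fold.

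Among the other matrix pathway genes, CRTAP, part of a complex that modifies collagen prolines, was lower in pregnant cows by -1.05 in caruncular and -1.14 in intercaruncular tissue. No other of the 15 processing genes was called. Over all probes, 4.21% were called lower and 5.77% higher in caruncular tissue, and 3.25% lower and 3.99% higher in intercaruncular tissue. Several of the list counts here lie near those shares. Of 9 matricellular genes CYR61 (-1.08 and -0.93) and POSTN (-0.67 and -0.70) were lower in both tissues. Of 6 other leucine-rich proteoglycans FMOD, fibromodulin, was higher (0.81 and 0.91) and OGN, osteoglycin, lower (-0.78 and -0.65) in both. Of 19 receptors, 2 were lower in caruncular tissue (DDR1 and the integrin chain ITGB8, -0.65 each) and 1 in intercaruncular tissue (the laminin receptor chain ITGA7, -0.69).

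Markers of several cell types moved with these changes too. Of 7 smooth muscle markers tested, ACTA2, ACTG2, CNN1, MYH11 and TAGLN were lower in pregnant cows in both tissues, with medians over the list of -0.92 in caruncular and -1.04 in intercaruncular tissue. The mean of the 7 ran from -1.61 to 0.13 in intercaruncular samples of pregnant cows and from -0.95 to 0.84 in those of cyclic cows. In caruncular samples the same ranges were -1.44 to 0.51 and -0.35 to 1.10. Of 6 endothelial markers PECAM1 and TEK were lower in both tissues (-1.29 and -1.52 for PECAM1, -0.61 and -0.75 for TEK). Of 5 epithelial markers CDH1 (1.02 and 0.71) and CLDN4 (0.95 and 1.10) were higher in caruncular and intercaruncular tissue, and KRT18 was lower in caruncular tissue (-0.86). Of 5 stromal markers PDGFRA was higher in caruncular tissue (0.82). The part of cell content in the matrix changes was not tested.

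The 3 slides that held both states of a tissue each held 1 cyclic cow, so their differences are given as values only. The called caruncular genes had the same sign for 4 of 4 on 1 slide and 3 of 4 (not LOXL4) on another, whose cyclic cow was Cyclic_9960, and the called intercaruncular genes for 9 of 9. These cows were also among those used for the calls. On the same slides 43, 36 and 34 of the 53 genes tested were lower in the pregnant cows. With slide as a fixed block, a fit that rested on 1 slide with 1 cyclic cow in each tissue, 0 genes were called by limma, with 4 caruncular and 14 intercaruncular genes at an unadjusted p under 0.05. The changes in that fit ran from -1.46 (COL12A1) to -0.24 (COL5A3) over the intercaruncular calls, with COL1A1 at -1.30, and in caruncular tissue were -1.30 for COL3A1, -0.50 for COL12A1, -0.11 for LOXL4 and 0.28 for COL18A1. Without the 3 cyclic caruncular samples with FOXA2 in the intercaruncular range, 5 caruncular genes were called, all lower, namely COL3A1, COL12A1, COL2A1, COL5A3 and LAMA4. COL18A1 (0.57, adjusted p = 0.0708) and LOXL4 (-0.47, adjusted p = 0.235) were then not called.

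An interaction term over the 44 samples asked whether the change in pregnancy was unequal in caruncular and intercaruncular tissue. By limma 0 of 53 genes passed and 4 had an unadjusted p under 0.05. Of all 14693 probes tested, 0.0204% passed and 1083 had an unadjusted p under 0.05. The median over the 53 genes of the caruncular minus the intercaruncular change was 0.19, against -0.02 over all probes, and it was above 0 for 43 of 53. The smallest p belonged to LAMC1, the laminin chain shared by most isoforms (0.29, adjusted p = 0.592), COL9A2 (-0.58, adjusted p = 0.637) and COL6A3 (0.55, adjusted p = 0.678). With the cow as a block 0 genes passed and 11 had an unadjusted p under 0.05. A difference between tissues in the effect of pregnancy on these genes was not shown.

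Embryo size was compared within the pregnant cows. In intercaruncular tissue 5 of 53 genes were called, all lower in cows with a large embryo, where 3.68% of all probes were called, 2.12% lower and 1.57% higher. They were LAMA4 (1.47-fold), ELN (1.62-fold), COL9A3 (2.56-fold), LOX (1.38-fold) and COL3A1 (1.90-fold), from 5 different roles. All 11 fibrillar collagens had a negative change with a median of -0.43. The median over the 53 genes was -0.25, against -0.01 over all probes.

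LAMA4 ran from -0.59 to -0.21 in the 7 cows with a large embryo with a median of -0.46, and was -0.18, 0.11, 0.16, 0.19 and 0.23 in the 5 cows with a small embryo. The groups did not overlap (-0.55 ± 0.09 SE, adjusted p = 0.0214 by limma). ELN ran from -0.71 to 0.12 with a median of -0.40 in cows with a large embryo, and was 0.16, 0.20, 0.31, 0.36 and 0.62 in those with a small embryo. These groups did not overlap either (-0.70 ± 0.14, adjusted p = 0.0302).

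COL9A3 ran from -2.32 to -0.32 with a median of -1.41 in cows with a large embryo, and was -0.49, -0.31, -0.23, -0.09 and 0.71 in those with a small embryo (adjusted p = 0.0329). A single cow with a large embryo, Pregnant_926, lay among the small group. LOX, the enzyme that starts collagen and elastin crosslinks, ran from -0.68 to -0.04 with a median of -0.42, against -0.14, -0.12, 0.04, 0.06 and 0.23 (adjusted p = 0.0482). There cow Pregnant_9790 alone reached into the small group. COL3A1 ran from -1.16 to -0.41 with a median of -0.57, against -0.54, -0.22, 0.65, 0.74 and 0.76 (adjusted p = 0.0493), with overlap.

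**Figure D5:**
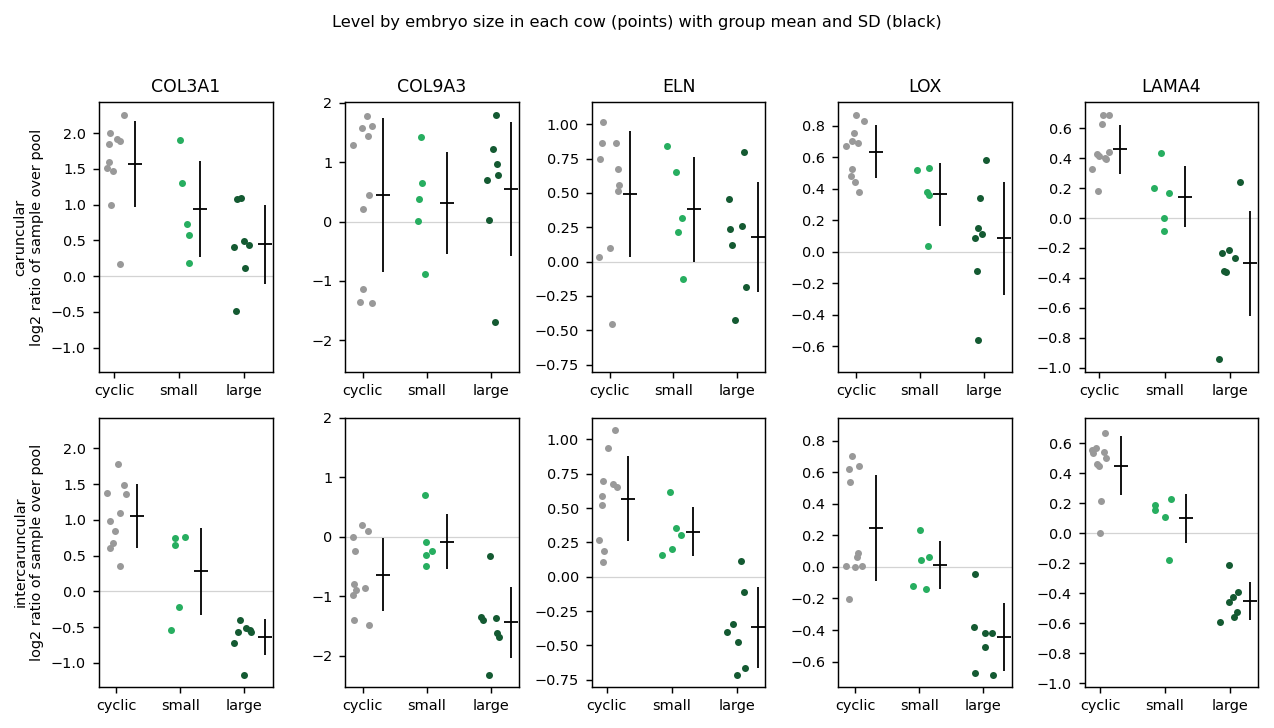
Levels (log2 ratio to the pool) of COL3A1, COL9A3, ELN, LOX and LAMA4 in cyclic cows and in pregnant cows with a small or a large embryo, in both tissues, with group means and SD. In intercaruncular tissue LAMA4 and ELN of cows with a large embryo lie below every cow with a small embryo.

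In caruncular tissue 0 of 53 genes passed by limma, beside 0% of all probes. Of all 14695 probes tested, 1017 had an unadjusted p under 0.05, as did 3 of the 53 genes. By the methods' t-test 0 genes passed and 2 had an unadjusted p under 0.05. The 3 genes by limma were COL18A1, LAMA4 and COL4A5. COL18A1 ran from 0.05 to 1.23 with a median of 0.66 in cows with a large embryo, and was -0.44, -0.04, 0.01, 0.07 and 0.15 in those with a small embryo (0.71 ± 0.18 SE, adjusted p = 0.603). Of the cows with a large embryo 6 of 7 lay above every cow with a small embryo. LAMA4 gave -0.45 (adjusted p = 0.667) with 6 of 7 below every cow with a small embryo, and COL4A5 gave 0.61 (adjusted p = 0.684).

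The difference of the size effect between the tissues, tested after the data were seen, passed for 0 of 53 genes, beside 0% of all probes, with 3 at an unadjusted p under 0.05. These were COL4A5 (0.86), COL9A3 (1.59) and COL4A6 (1.19), each with an adjusted p of 0.997. With the cow as a block 0 passed, with 12 at an unadjusted p under 0.05.

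The calls for embryo size depended on single cows. Leaving out each cow in turn gave 0 to 10 intercaruncular calls. The count was 0 without cow Pregnant_932 or Pregnant_3807 (both small), 1 without cow Pregnant_1943 or Pregnant_3805 (both large), 2 without Pregnant_3803, Pregnant_3957, Pregnant_9246 or Pregnant_977, 3 without Pregnant_926 or Pregnant_9921, 4 without Pregnant_3956, and 10 without Pregnant_9790, the cow scanned on the third date. All 5 changes remained negative in each of these fits, with LAMA4 between -0.62 and -0.52. Smooth muscle markers lay lower in cows with a large embryo, at -1.61 to -0.46 against -0.80 to 0.13 for the mean of 7 in intercaruncular samples, though 0 of 7 were called. Of 6 endothelial markers tested there 1 was called, PECAM1, which fell by 0.93 on the log2 scale. CRTAP (-0.67) and LTBP1 (-0.62), which holds latent TGF-beta in the matrix, were the only other pathway genes called, beside 3.68% of all probes. The part of cell content was not tested.

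The fertility class was compared in the same 12 cows. In each tissue most of these cows had their first array on a slide whose pregnant cows were all of a single class. Fertility class and slide can therefore hardly be told apart. By limma 0 of 53 genes passed in either tissue, beside 0% of all probes in caruncular and 0.0476% in intercaruncular tissue (0.00681% higher and 0.0408% lower in fertile cows). In each tissue 4 of 53 genes had an unadjusted p under 0.05 by limma. Of all 14695 probes tested, 2025 in caruncular and 2000 in intercaruncular tissue had such a p. The methods' t-test called 0 genes in each, with 1 and 4 at an unadjusted p under 0.05. The median change of the 53 genes was -0.04 in caruncular and -0.12 in intercaruncular tissue.

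COL23A1, a transmembrane collagen, had the smallest p in both. In intercaruncular tissue it ran from -0.38 to 0.54 with a median of -0.05 in fertile cows and from 0.50 to 0.94 with a median of 0.76 in sub-fertile cows, with 5 of 6 fertile cows below every sub-fertile cow (-0.72 ± 0.15 SE, adjusted p = 0.138). In caruncular tissue it ran from -0.96 to 0.27 with a median of 0.04, against 0.22 to 0.68 with a median of 0.37 (-0.53 ± 0.18, adjusted p = 0.285). These 2 tissues came from the same cows and are not independent.

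The next smallest in intercaruncular tissue were LUM (-0.67, adjusted p = 0.175) and COL9A2 (-0.53, adjusted p = 0.233). The fourth there, COL13A1, a transmembrane collagen at sites of cell adhesion, is named after its values were seen, because its groups did not overlap, at -1.80 to -0.08 in fertile and 0.10 to 0.38 in sub-fertile cows (-0.76, adjusted p = 0.241). In caruncular tissue they were COL6A3 (0.70, adjusted p = 0.322), LOXL1 (0.35, adjusted p = 0.337) and, outside the rule for named genes, FBLN2 (0.43, adjusted p = 0.357), a fibulin of elastic fibres and basement membranes. None of these was called.

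Some cows stood at the end of their group for many genes. In caruncular tissue cow Pregnant_3803 was the lowest of the 12 pregnant cows for 21 of 53 genes and cow Cyclic_1940 the lowest of the 10 cyclic cows for 18. In intercaruncular tissue cow Cyclic_9786 was the highest of the 10 cyclic cows for 19 genes and cow Pregnant_3803 the lowest of the 12 pregnant cows for 12. Cow Cyclic_9786 was also the highest cyclic cow for 16 genes in caruncular tissue. Among the intercaruncular arrays of cyclic cows, that of Cyclic_9786 alone was scanned on the third date. It had 76.1% of spots well above background, against 68.8% to 71.9% in the others. The part of scan date in its levels was not tested.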

How the data were processed

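The authors deposited scanner output with an intensity for each spot and dye. Per the file headers it came from Agilent Feature Extraction 9.5.3.1, with background subtraction, flags on outlying spots and LOWESS dye normalization. Each deposited log10 ratio is sample (Cy5) over pool (Cy3). The deposited matrix of 17876 probes holds log2 ratios, which differed from those of the scanner files by an SD of 0.03 to 0.09 per array and served as an alternative. The methods state the dyes, so the direction was kept although the correlation between arrays over all probes reached -0.41. There is no dye swap.

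Ratios were taken to log2, averaged over the spots of a probe without outlying spots, and centred on each array's median, which was 0 on all 48 arrays. The caruncular samples of 4 cows had a second array, averaged with the first (SD of the difference 0.10 to 0.15). Probes entered the tests if 22 or more of the 44 samples had a Cy5 signal of 80 units or more, flagged as well above background. Of the 70 member probes 14 matched the RefSeq table by accession, 29 by gene number and 6 by symbol, 49 with the same symbol, and 21 did not match. The number of arrays limits the precision.

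Groups were compared by limma 3.58.1 (lmFit, eBayes, two-sided) in R 4.3.3 with data.table (version 1.17.8), and figures were drawn in Python 3.11.15 with matplotlib 3.10.9, numpy 2.4.6 and pandas 2.3.3. Samples of a group come from separate cows. The tissues of a cow are paired because they come from the same animal. Their deviations from the group means correlated above 0.1 in 22 of 22 cows (lowest 0.11, median 0.61). The reported tissue and interaction fits did not use this pairing, and fits with the cow as a block served as alternatives. The limma script was tested on simulated data.

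Named were the members called in a pregnancy or tissue comparison, up to the 25 of smallest p, the brightest gene of each role, for embryo size and fertility the members called or else the 3 of smallest p, and for the interaction the 3 of smallest p. The members, roles, gene lists and tests were chosen with earlier results of these data known. Alternatives were the deposited matrix, loess after normexp (offset 50), omitting the centring, omitting the filter or raising it to 40 samples, the methods' t-test, the first array alone, slide and scan date as blocks, the cow as a replicate block, values within a slide, counts over probes instead of genes, and, for embryo size and fertility, the other label as a covariate. Each cow in turn was left out of the embryo size comparison. Omitting the centring left every value as it was. Chosen after seeing the data were leaving out the cows scanned on the third date alone, leaving out the caruncular samples with FOXA2 in the intercaruncular range, centring on the probes tested, and the embryo size by tissue interaction.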

Additional observations from a re-analysis of the deposited data

Results flagged for a closer look

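Single samples were set against the rest of their group for 81 groups of values. Groups of more than 10 samples were not examined, so pregnant cows entered only by embryo size or fertility class. In 6 of them the end sample stood apart by a gap that chance gives in about 1 of 20 groups, which is 4.05 of 81. In intercaruncular tissue of cyclic cows, cow Cyclic_9786 was apart in COL1A1 at 1.69 (next 0.23), DCN at 2.08 (next 0.96) and COL4A6 at -0.35 (next -1.13), each time as the highest of 10. Its array alone in that group was scanned on the third date. In the same group cow Cyclic_9960 was apart in COL5A1 at -0.88 (next -0.30), as the lowest. Cow Pregnant_926 was apart as the lowest in COL3A1 of intercaruncular tissue with a large embryo at -1.16 (next -0.73) and in COL23A1 of caruncular tissue in fertile cows at -0.96 (next -0.15).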

How the results depend on the processing

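The median change of the matrix genes moved by less than the spread between cows in all 27 alternative fits of it, and 104 counts of called genes stayed within 1.5 times of those reported while 17 did not. These tallies include the fits without centring, which could not differ. They also include comparisons with 0 calls as reported, whose counts stayed at 0, so agreement there says little. With slide as a fixed block the pregnancy comparison rested on 1 slide with 1 cyclic cow in each tissue. In intercaruncular tissue the changes of COL12A1 (-1.46), COL1A1 (-1.30), COL1A2 (-1.08) and LAMA4 (-0.79) were then larger than reported. Those of COL3A1 (-0.73), LOXL4 (-0.79), ELN (-0.62), COL24A1 (-0.35) and COL5A3 (-0.24) were smaller. In caruncular tissue that of COL3A1 (-1.30) was larger, and those of COL12A1 (-0.50), LOXL4 (-0.11) and COL18A1 (0.28) were smaller. The stricter filter left out COL4A4, COL24A1 and LAMA1, so that 25 genes were called for tissue in pregnant cows and 8 for pregnancy in intercaruncular tissue. The embryo size comparison in intercaruncular tissue gave 2 calls without a filter on dim probes, 2 by the methods' t-test, 3 when centred on the probes tested, 10 without the cow scanned on the third date alone, and 0 to 10 with each cow left out, whereas in caruncular tissue leaving out each cow gave 0 to 0. The cow as a replicate block gave 18 calls for tissue in cyclic cows and 30 in pregnant cows, and changed no other count of calls. Called genes that changed sign were COL6A1 (-0.0352) and LOXL4 (0.14) for tissue within the slide of cow Pregnant_9790, and LOXL4 (0.11) for pregnancy in caruncular tissue within the slide of cow Cyclic_9960. The rest that did so were not called. For pregnancy in caruncular tissue they were COL4A5 (0.0159) without the third date, DCN (-0.11) with slide fixed and FN1 (0.0134) without the 3 caruncular samples set apart by FOXA2. For pregnancy in intercaruncular tissue they were COL7A1 (0.21) with slide fixed and DCN (0.00961) without the third date. For tissue in cyclic cows they were FBLN1 (-0.0132 with normexp, -0.0326 without the 3 samples) and COL23A1 (0.0755 without the 3 samples). LOXL4 in caruncular tissue (adjusted p = 0.0471) had an adjusted p of 0.0539 when centred on the probes tested, 0.0561 with normexp, 0.068 without a filter and 0.0902 by the methods' t-test. With normexp ELN (-0.57) and COL24A1 (-0.47) in intercaruncular tissue fell short of 1.5-fold. With slide as a random block the adjusted p was 0.0533 for COL18A1 and 0.205 for LOXL4 in caruncular tissue, and 0.0521 for ELN, 0.0751 for COL24A1 and 0.153 for LOXL4 in intercaruncular tissue. The cause of these changes was not tested. Dim genes, 14 of the 67, could not be compared at all.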
